A study of Mus musculus with 14 samples.

Results

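The genes described here were 10 secreted or cell-surface proteins that cut the extracellular matrix or block the enzymes that do so. These genes were chosen by symbol from the 55414 genes of the count table, with earlier results of these data known. The proteases were Adamts1, Adamts4, Adamts5, Adamts9, Mmp2 and Mmp14, and the inhibitors were Timp1, Timp2, Timp3 and Serpine2. Their levels were read in 14 RNA-seq libraries of granulosa cells (GCs), the somatic cells that surround the oocyte, taken from antral follicles of female mice. Mutants of the strain B6.BKS(D)-Leprdb/J, which lack the long leptin receptor (db/db, 4 libraries), were set beside their lean littermates (CT db, 4 libraries). Mutants of the strain B6.Cg-Lepob/J, which lack leptin itself (ob/ob, 3 libraries), were set beside lean littermates of that colony (CT ob, 3 libraries). The mutants were 12 weeks old, and all mice were fed chow. The columns of the control libraries carry names that read as heterozygous, whereas the sample labels give wild type, and this was not settled. Each library came from about 50 cells with no molecular identifiers, and nothing in the labels says whether the libraries of a group came from separate mice, so p-values measure the spread between libraries only.

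Enzymes of the ADAMTS family are secreted zinc proteases that cleave large proteoglycans such as versican and aggrecan. Matrix metalloproteinases (MMPs) cleave collagens and basement membrane proteins, and Mmp14, which is anchored in the cell membrane, activates the precursor of Mmp2 with the help of Timp2. Tissue inhibitors of metalloproteinases (TIMPs) occupy the active site of these enzymes, and Timp3, which binds to the matrix, also blocks several ADAMTS proteases. Serpine2, known as protease nexin-1, blocks serine proteases such as thrombin, urokinase and plasmin. In the ovary these proteins are known for the remodelling of the follicle wall, the cumulus matrix and the corpus luteum, and Adamts1 is known as a target of the progesterone receptor in the preovulatory follicle.

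Adamts1 and Adamts5 are neighbours on chromosome 16 (GRCm39, positions 85590579 to 85600009 and 85653061 to 85698716), both on the minus strand and 53051 bases apart. Promoter sequence was taken from RefSeq (GRCm38.p6), which had an entry for 7 of the 10 genes, all but Adamts4, Adamts5 and Mmp2, and each window of 250 bases before the start was found once in GRCm39. The windows of 3 genes are shown because they stood out in different ways, Adamts1 for its known role at ovulation, Adamts9 for the smallest p between db/db and CT db, and Timp1 for the smallest p between the control groups. Capitals mark a TATA box (TATAAA) or a GC box (GGGCGG or its reverse complement). The windows are chr16:85600002-85600251 on the minus strand for Adamts1, chr6:92920516-92920765 on the minus strand for Adamts9 and chrX:20736155-20736315 on the plus strand for Timp1, of which 161 bases are shown because the rest lies inside the annotated gene.
Adamts1: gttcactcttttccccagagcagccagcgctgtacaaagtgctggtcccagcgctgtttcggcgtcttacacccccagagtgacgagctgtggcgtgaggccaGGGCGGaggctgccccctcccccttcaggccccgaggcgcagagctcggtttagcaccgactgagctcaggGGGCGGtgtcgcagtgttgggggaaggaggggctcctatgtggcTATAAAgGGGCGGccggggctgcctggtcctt
Adamts9: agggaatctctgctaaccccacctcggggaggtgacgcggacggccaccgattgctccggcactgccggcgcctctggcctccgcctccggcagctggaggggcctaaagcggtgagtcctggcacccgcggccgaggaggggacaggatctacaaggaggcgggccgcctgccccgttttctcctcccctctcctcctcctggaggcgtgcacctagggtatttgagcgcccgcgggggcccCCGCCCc
Timp1: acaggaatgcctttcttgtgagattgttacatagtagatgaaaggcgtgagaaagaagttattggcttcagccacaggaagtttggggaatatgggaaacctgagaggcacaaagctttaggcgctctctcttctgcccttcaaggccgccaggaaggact

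A TATA box was found in the Adamts1 window only, at position -32 from the start, and in 12.4% of 32851 mouse promoters of the same length. A GC box was found in all 7 windows, against 32.7% of all promoters, with 3 in Adamts1, 1 at position -7 in Adamts9 and 1 at position -8 in Timp1, in the part not shown. By the GRCm39 annotation, the windows of Timp2 and Serpine2 lie wholly inside the gene, and that of Mmp14 lies inside it over 177 of its bases, which hold both of its GC boxes. The window of Timp3 lies inside the gene over 40 of its bases, which hold its GC box at position -15. The share over all promoters was not split by the place of the box. The AP-1 site TGANTCA, the cAMP response element TGACGTCA and the nuclear receptor site AAGGTCA, searched on both strands, were in none of the 7 windows and in 6.75%, 1.55% and 4.08% of all promoters. These are matches of letters and not binding sites.

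Library depth lay between 2204686 and 8367593 counts, and a level of 3 counts, taken as the limit of detection, amounted to 0.382 to 1.26 CPM, the unit of counts per library size after TMM correction. Depth did not overlap between a mutant group and its own controls. No db/db library exceeded 3059777 counts, whereas the smallest library of CT db held 3624237. In the ob model the mutants were the deeper group, at 5306632 counts or more, against at most 4847166 for CT ob. Raw counts near the limit of detection thus came from unequal depths within each model, and the part of depth in them was not tested. Lep (0 to 3 counts) and Lepr (0 to 17 counts) were too low to check the genotype labels. Granulosa cell markers (9 genes, among them Inha, Fshr, Amh and Foxl2) summed to 5360 to 12600 CPM in every library. Inha had the highest mean of the 9 over the 14 libraries (5180 CPM), against 197 for Fshr, 308 for Amh and 84.5 for Foxl2. Library HOM_24 of db/db stood apart with 317 CPM over 8 theca and stroma markers, 250 CPM of it from Cyp17a1, the theca cell enzyme of androgen synthesis, against 10.5 to 99.1 CPM in the other libraries. Library obHet_68 of CT ob gave 24.5% of its counts to the 18S ribosomal RNA gene Rn18s-rs5, against 1.1% to 12.8% elsewhere. The summed level of 6 oocyte markers was 50.4 to 856 CPM in CT ob and 2.02 to 194 CPM in CT db. In these bulk libraries, fewer cells of a type and less RNA per cell cannot be told apart.

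Serpine2 was by far the most abundant of the 10 genes when counts were scaled per kilobase of exon (RPKM), with a mean of 200 RPKM over the 14 libraries, above 99.3% of the genes tested. Timp1 followed with 9.43 RPKM, Adamts5 with 5.67, Adamts1 with 5.36, Timp2 with 5.11 and Mmp14 with 4.84 RPKM. The ranges of these 5 genes over libraries overlapped, so their order is not fixed, while Serpine2 never came below 131 RPKM. Mmp2 had a mean of 2.05 RPKM, Adamts9 of 1.51 and Timp3 of 0.81 RPKM. Adamts4, an aggrecan-cleaving protease, was at 0.0965 RPKM, with 0 to 8 counts a library, and passed the filter on low counts in no fit.

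**Figure D1:**
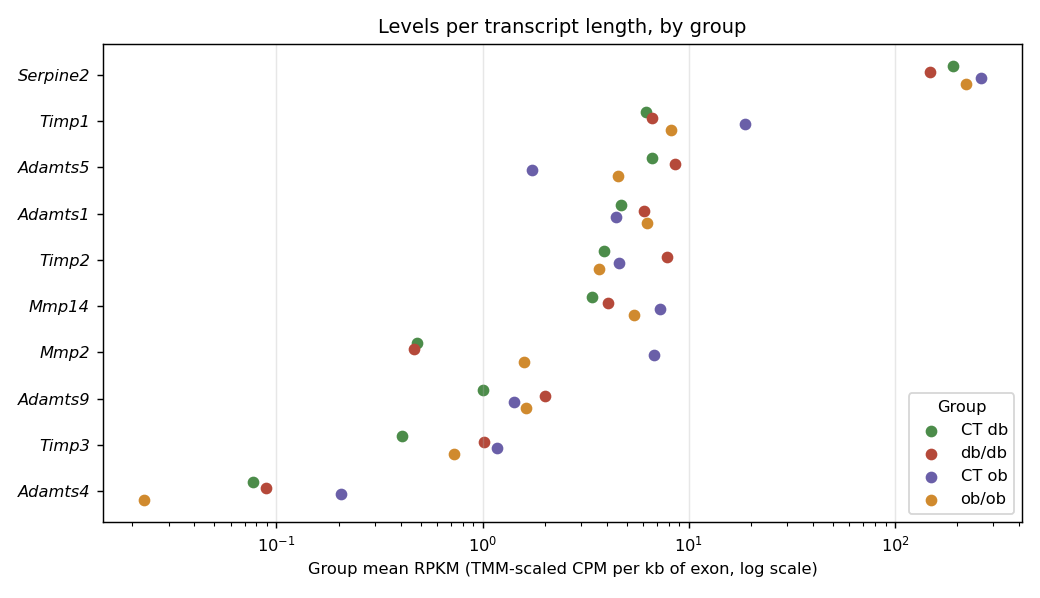
Mean level of each gene in each group in RPKM (TMM-scaled CPM per kilobase of exon) on a log axis, 1 point per group, coloured by group. Serpine2 lies above 100 RPKM in every group, and the CT ob point of Timp1 (18.8 RPKM) and Mmp2 (6.74 RPKM) lies to the right of the other groups of the same gene.

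Adamts9, a versican-cleaving protease, was the gene of the 10 with the smallest p between db/db and its controls. Its level was 13.9, 14.3, 16.5 and 15.7 CPM in CT db and 30.4, 32.6, 39.9 and 18.2 CPM in db/db. All db/db libraries lay above all CT db libraries, although library HOM_81 with 18.2 CPM was close to them. The log2 fold change was 1.04 ± 0.24 (SE), with an unadjusted p of 0.00101 and an adjusted p of 0.363 by edgeR, so the gene was not called. DESeq2 on the same genes gave an adjusted p of 0.0447 and called it. In the ob model its levels were 16.4, 12.2 and 35.7 CPM in CT ob and 15.6, 40.3 and 17.5 CPM in ob/ob, with 1 high library in each group and a log2 fold change of 0.12 ± 0.526.

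Adamts5, which cleaves aggrecan and versican, was the protease with the highest mean level per kilobase in db/db (8.54 RPKM). It was measured at 35.8, 119, 54.4 and 79.0 CPM in CT db and at 80.9, 94.3, 110 and 87.8 CPM in db/db. The controls spanned the levels of the mutants, and the log2 fold change of 0.40 ± 0.296 was not called. In CT ob it was at 4.16, 25.9 and 26.9 CPM, below every library of CT db, and in ob/ob at 26.0, 54.2 and 67.7 CPM. The lowest ob/ob library lay between the CT ob libraries, and the log2 fold change of 1.32 ± 0.635 between ob/ob and CT ob had an adjusted p of 0.638 by edgeR. Between the control groups the log2 fold change was -1.90 ± 0.53 (edgeR, adjusted p = 0.0456; exact permutation p = 0.0286), so Adamts5 was lower in CT ob and was called. This call held in 3 of the 14 fits that left out a library (log2 fold change -2.33 to -1.39, adjusted p up to 0.128) and was lost with library totals (edgeR, adjusted p = 0.0523) and in a fit of the control groups alone (edgeR, adjusted p = 0.114). It was also lower in ob/ob than in db/db in every library, but the log2 fold change of -0.97 ± 0.492 was not called (edgeR, adjusted p = 0.676).

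Adamts1 was present in every library and differed little between groups. Its levels were 15.9, 16.2, 37.1 and 33.0 CPM in CT db and 26.3, 33.8, 48.8 and 23.5 CPM in db/db. In the ob model they were 15.3, 30.5 and 27.2 CPM in CT ob and 11.9, 41.3 and 49.6 CPM in ob/ob. The groups overlapped in each comparison, with log2 fold changes of 0.41 ± 0.326 for db/db and 0.44 ± 0.502 for ob/ob. Its neighbour Adamts5 was called between the control groups and Adamts1 was not, at -0.04 ± 0.452. Adamts4 was at 0.289, 0.866, 0.275 and 0.550 CPM in CT db, at 0.834, 0, 0.841 and 0.627 CPM in db/db, at 1.59, 1.78 and 0.626 CPM in CT ob and at 0.176, 0.139 and 0.127 CPM in ob/ob. The ob/ob values stand for 1 count each, so the difference from CT ob was at the limit of detection and was not tested.

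Mmp2, the gelatinase that cleaves type IV collagen, was near the limit of detection in the db model and clearly present in CT ob. It had 9, 13, 5 and 0 counts in CT db and 14, 1, 0 and 1 counts in db/db, and was not tested between them. In CT ob it had 218, 42 and 56 counts, or 43.2, 10.7 and 17.5 CPM, and in ob/ob 52, 6 and 53 counts, or 9.13, 0.837 and 6.75 CPM. Every CT ob library was above every library of the other groups. The log2 fold change was -2.14 ± 0.774 between ob/ob and CT ob (edgeR, unadjusted p = 0.0236, adjusted p = 0.572; exact permutation p = 0.1) and was not called. Mmp2 passed the filter on low counts through the ob libraries in which it was high, so its being tested against CT db at all depended on that difference. The fitted log2 fold change between CT ob and CT db, 3.79 ± 0.968 (edgeR, adjusted p = 0.0346), past the threshold, is therefore given as a description. It also depends on the few counts in CT db, and the adjusted p was under the threshold in 9 of the 14 fits that left out a library.

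Mmp14, the membrane-anchored MMP, was even within groups, with a coefficient of variation of 13% to 21.5%. Its levels were 25.2, 16.2, 17.9 and 24.2 CPM in CT db and 31.3, 22.1, 19.8 and 27.3 CPM in db/db, which overlapped. It was at 49.3, 38.1 and 46.3 CPM in CT ob and at 28.8, 29.7 and 41.4 CPM in ob/ob, where library obHOM_50 with 41.4 CPM lay within the CT ob range. The log2 fold change was 0.32 ± 0.214 for db/db and -0.47 ± 0.228 for ob/ob, neither of them called. CT ob was 2.2-fold higher than CT db, or on the log2 scale 1.14 ± 0.216 (edgeR, adjusted p = 0.0134; exact permutation p = 0.0286).

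Timp1, an inhibitor of most MMPs that growth factors and cytokines are known to induce, had the smallest p of the 10 genes between the control groups. It was at 16.8, 13, 8.79 and 9.90 CPM in CT db and at 14.6, 15.9, 12.6 and 8.78 CPM in db/db. These 2 groups overlapped, and the log2 fold change was 0.14 ± 0.28. In CT ob it was at 26.0, 36.3 and 47.9 CPM and in ob/ob at 13, 15.8 and 19.1 CPM, so that all CT ob libraries were above those of the other groups. Between ob/ob and CT ob the log2 fold change was -1.26 ± 0.317 (edgeR, unadjusted p = 0.00369, adjusted p = 0.539), which was not called, and the exact permutation p of 0.1 is the smallest that 3 against 3 libraries allow. CT ob was 3.14-fold higher than CT db, or on the log2 scale 1.65 ± 0.292 (edgeR, adjusted p = 0.0102; exact permutation p = 0.0286). The difference between the mutant effects of the ob and db models was -1.40 ± 0.421 on the log2 scale (edgeR interaction term, unadjusted p = 0.00458, adjusted p = 0.417) and was not called.

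Timp2 and Timp3 had their highest level within the db model in HOM_24, the library with the high theca and stroma markers. Timp2 was at 8.96, 15.1, 24.2 and 20.9 CPM in CT db and at 68.8, 23.8, 19.3 and 28.2 CPM in db/db, the first of which was HOM_24. Timp3 was at 2.31, 2.60, 3.57 and 4.68 CPM in CT db and at 16.7, 5.01, 2.52 and 8.78 CPM in db/db, in the same order. The groups overlapped for both genes. Their log2 fold changes of 1.05 ± 0.407 (edgeR, unadjusted p = 0.0241, adjusted p = 0.597) and 1.36 ± 0.515 (edgeR, unadjusted p = 0.0217, adjusted p = 0.597) were not called, and without HOM_24 they were 0.50 and 0.78.

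In the ob model Timp2 was at 7.33, 30.2 and 23.5 CPM in CT ob and at 16.5, 10.5 and 21.9 CPM in ob/ob. Timp3 was at 5.15, 20.8 and 2.50 CPM in CT ob and at 7.37, 3.21 and 7.14 CPM in ob/ob. The highest value of both genes came from library obHet_65, which had the second highest sum of theca and stroma markers (99.1 CPM). Neither gene differed between ob/ob and CT ob beyond the spread of the libraries, and the log2 fold change of Timp3 turned from -0.71 to 0.56 without obHet_65. The 8 theca and stroma markers summed to 17.9 to 54.5 CPM in CT db, 16.8 to 317 in db/db, 22.2 to 99.1 in CT ob and 10.5 to 44.6 in ob/ob. In the db model 4 of them were tested, all 4 with a positive log2 fold change and 0 called, and Insl3 was at 0 in all libraries of both control groups. The part of these markers in the levels of Timp2, Timp3 and Mmp2 was not tested.

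**Figure D2:**
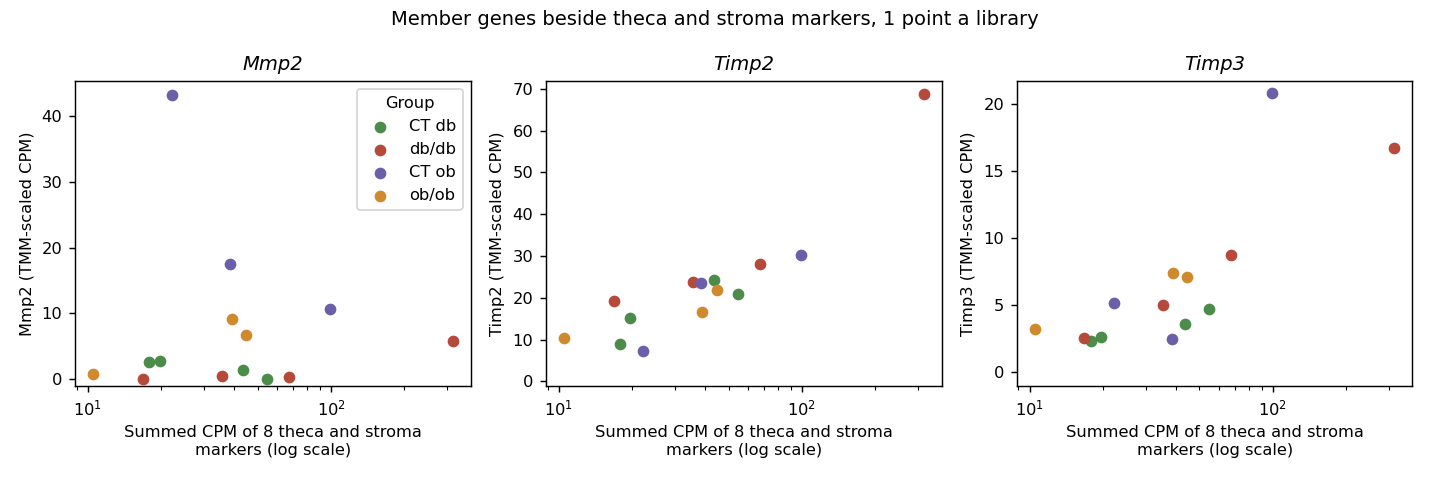
Level of Mmp2, Timp2 and Timp3 (vertical axes, TMM-scaled CPM) against the summed CPM of 8 theca and stroma markers (horizontal log axes), 1 point per library, coloured by group. Library HOM_24 of db/db lies at 317 CPM on the horizontal axis and has the highest Timp2 level (68.8 CPM), while the highest Mmp2 level (43.2 CPM) comes from a CT ob library at 22.2 CPM.

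Serpine2 was the only gene of the 10 that was lower in all db/db libraries than in all CT db libraries. It was at 2720, 2440, 2200 and 2050 CPM in CT db and at 1960, 1610, 1780 and 1910 CPM in db/db. The groups did not overlap, with a narrow gap, and the log2 fold change was -0.33 ± 0.145 (edgeR, unadjusted p = 0.0427, adjusted p = 0.648; exact permutation p = 0.0286), which was not called. In the ob model it was at 3010, 3760 and 2830 CPM in CT ob and at 2850, 1670 and 3620 CPM in ob/ob, where the groups overlapped and the log2 fold change was -0.29 ± 0.296. Every CT ob library was above every CT db library, at a log2 fold change of 0.48 ± 0.209 that was not called (edgeR, adjusted p = 0.158; exact permutation p = 0.0571).

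**Figure D3:**
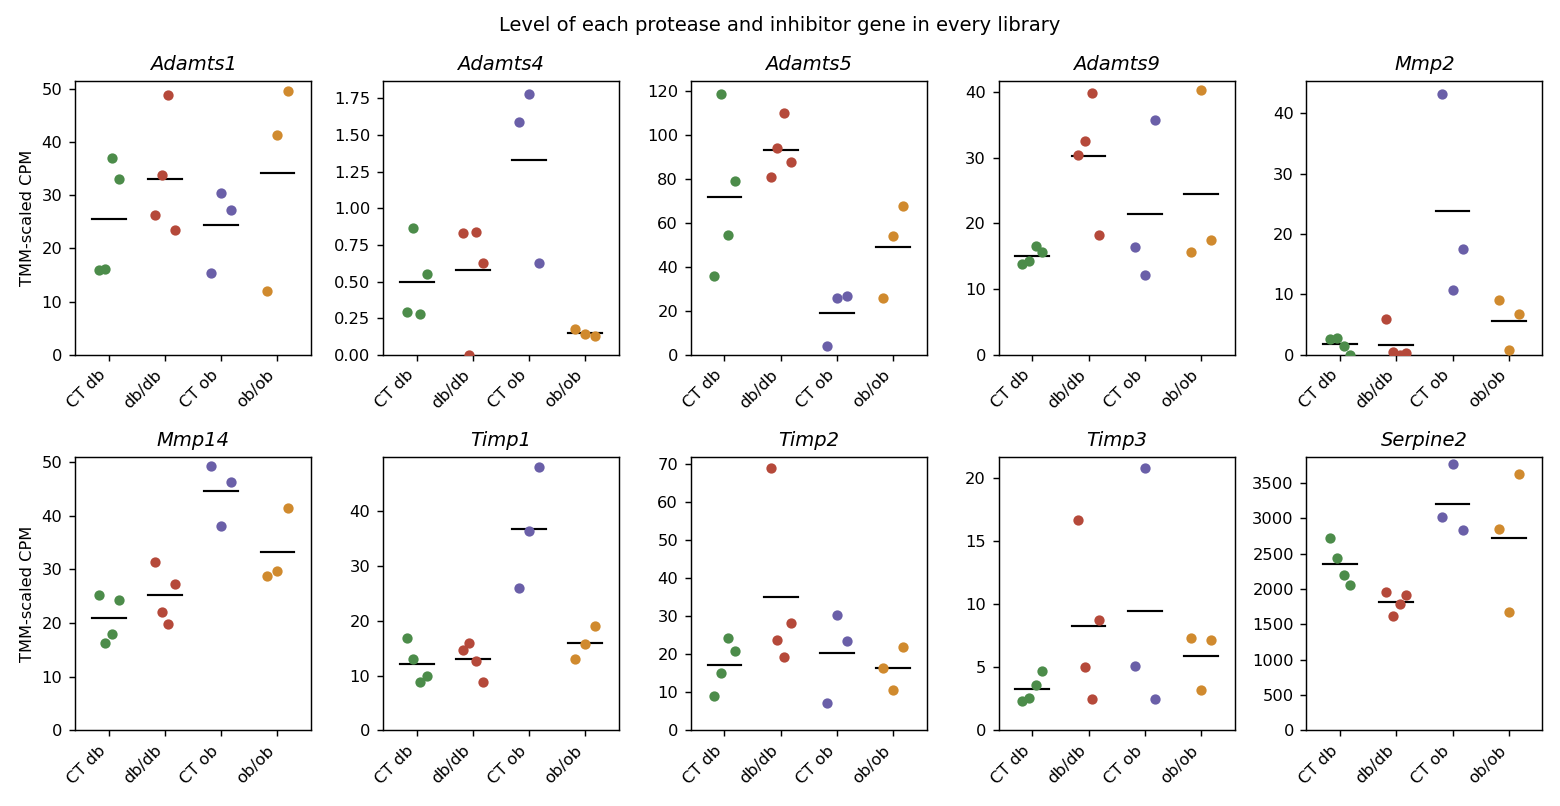
Level of each of the 10 genes in TMM-scaled CPM (linear axes starting at 0), with 1 point per library and a bar at the group mean for CT db and db/db (4 libraries each) and CT ob and ob/ob (3 libraries each). The 3 CT ob points of Timp1 (26.0 to 47.9 CPM) and Mmp2 (10.7 to 43.2 CPM) lie above all other libraries, and the 4 db/db points of Adamts9 (18.2 to 39.9 CPM) lie above those of CT db.

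Of the 10 genes, none was called by edgeR between a mutant and its own controls. The list was chosen with earlier results known, so counts of its genes beside shares of all genes are descriptions. In the db model 8 genes were tested and 0 were called by edgeR, against 0.00884% of all 11317 genes tested, and 1 (Adamts9) by DESeq2, which called 0.389% of all genes. Unadjusted p-values under 0.05 were found for Adamts9, Timp2, Timp3 and Serpine2, or 4 of the 8, against 7.59% of all genes. The groups did not overlap for 2 of the 8, against 4.43% of all genes. These were Adamts9, higher in db/db as 1.3% of all genes were without overlap, and Serpine2, lower as 3.13% were. The median log2 fold change of the 8 was 0.41, with 7 positive and 1 negative, and that of all genes was 0.01.

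In the ob model 9 genes were tested and 0 were called by edgeR, as were 0% of all 12425 genes, and 0 by DESeq2. Timp1 and Mmp2 had unadjusted p-values under 0.05, or 2 of the 9, against 8.16% of all genes. The same 2 genes did not overlap between groups, where 15.1% of all genes did not (9.06% higher and 6% lower in ob/ob). Their median log2 fold change was -0.38, with 3 positive and 6 negative, and that of all genes was -0.04. The difference between the mutant effects was called for 0 of the 9 genes by edgeR, against 0% of 12586 genes, and for 0 by DESeq2, with unadjusted p-values under 0.05 for Timp1, Mmp14 and Timp3 (8.11% of all genes). On the log2 scale this difference was -0.79 ± 0.308 for Mmp14 and -2.07 ± 0.93 for Timp3. It was 0.03 ± 0.632 for Adamts1, 0.93 ± 0.701 for Adamts5, -0.91 ± 0.575 for Adamts9, -2.07 ± 1.46 for Mmp2, -1.42 ± 0.71 for Timp2 and 0.04 ± 0.297 for Serpine2, and for Mmp2 it turned to 0.47 without library HOM_24.

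The 2 control groups, which differ in colony and strain as well as in the model they serve, were the groups between which some of these genes were called. By edgeR 4 of the 9 genes tested were called, against 6.63% of all 12586 genes, with Mmp2 among the 4 although its testing depended on its high level in CT ob. Besides Mmp2, Timp1 and Mmp14 were higher in CT ob, where 2.24% of all genes were called, and Adamts5 was lower, where 4.39% were. DESeq2 called the same number, but 12.4% of all genes. Groups did not overlap for 5 of the 9 genes, again with Mmp2, and for 20.2% of all genes (8.8% higher and 11.4% lower in CT ob). Not called were Timp3 at a log2 fold change of 1.53 ± 0.66, Adamts9 at 0.56 ± 0.41 and Timp2 at 0.27 ± 0.504. Model, strain and colony cannot be told apart here, and markers of other cell types lay higher in CT ob as well, short of a call. The 5 endothelium markers summed to 24.2, 32 and 8.13 CPM in CT ob and to 3.18 to 8.24 CPM in CT db, and 2 of 2 tested had a positive log2 fold change. The 6 oocyte markers were positive as well in 6 of 6 tests, none of these 8 genes was called, and none was at 0 throughout either group. Of the 9 granulosa markers 4 had a positive and 5 a negative log2 fold change, with a median of -0.22. Only Fshr of these was called, at -1.72 ± 0.349 (edgeR, adjusted p = 0.0163). The part of these cell types was not tested. Without library obHet_68, 0 of the 9 genes and 0.85% of all genes were called, with adjusted p-values of 0.0517 for Timp1 and 0.0542 for Mmp14, while the log2 fold changes kept their direction, at 1.33 for Timp1 and -2.33 for Adamts5. Without het_51, het_69, het_75 or obHet_60, 2 of the 9 were called, against 1.11%, 3.82%, 1.61% and 2.9% of all genes. A fit of the 2 control groups alone also called 0, among 3 calls in 11876 genes, with log2 fold changes in the same direction.

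Between ob/ob and db/db 0 of the 9 genes were called by edgeR, against 0.0159% of all genes, and 0 by DESeq2, with unadjusted p-values under 0.05 for Timp2 and Serpine2 (8.18% of all genes). The groups did not overlap for Adamts5 alone, against 10.2% of all genes (7.05% higher and 3.15% lower in ob/ob). Timp1 was at 13 to 19.1 CPM in ob/ob and at 8.78 to 15.9 CPM in db/db, with a log2 fold change of 0.25 ± 0.299. The log2 fold changes of Adamts1 (0.00 ± 0.445), Adamts9 (-0.35 ± 0.402), Mmp2 (1.72 ± 1.03), Mmp14 (0.35 ± 0.217), Timp2 (-1.16 ± 0.506), Timp3 (-0.54 ± 0.65) and Serpine2 (0.52 ± 0.209) were not called either. The 6 oocyte markers summed to 99.6 to 544 CPM in ob/ob and 4.17 to 44.1 CPM in db/db. All 6 had a positive log2 fold change (3.02 to 4.14) without overlap of the groups, and 0 were called. Of 5 tested theca and stroma markers 4 were negative and 1 positive, with 0 called. The part of these markers was not tested. The comparisons of CT ob with CT db and of ob/ob with CT ob share the CT ob libraries. The high CT ob values of Timp1, Mmp2 and Mmp14 thus enter both.

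**Figure D4:**
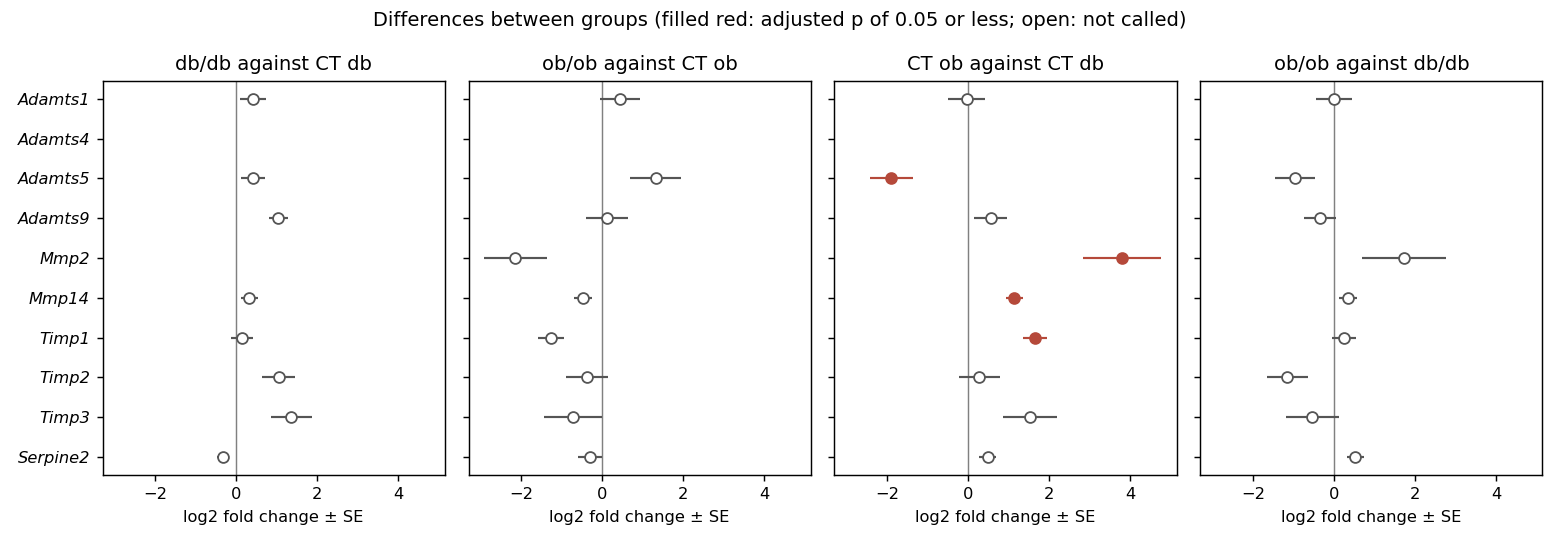
Log2 fold change ± SE of each gene by edgeR (horizontal axes) in 4 comparisons, with filled red points where the adjusted p was 0.05 or less and open points where the gene was not called. Red points appear only between CT ob and CT db, at 3.79 for Mmp2, 1.65 for Timp1, 1.14 for Mmp14 and -1.90 for Adamts5, and genes without a point were not tested.

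The summed level of the 6 proteases was 12 to 25.1 RPKM a library, and that of the 4 inhibitors was 145 to 333 RPKM. Serpine2 made up 86.5% to 95.4% of the inhibitor sum. The ratio of inhibitors to proteases was 19.3, 11.3, 11.7 and 9.64 in CT db and 8.76, 7.01, 6.23 and 9.20 in db/db. All db/db values lay below those of CT db, the nearest by a small margin. The ratio mostly follows Serpine2, which blocks serine proteases, while the 6 proteases summed here are ADAMTS enzymes and MMPs. Timp1, Timp2 and Timp3, which block such enzymes, had group means of 6.62, 7.85 and 1.01 RPKM in db/db. In CT db their means were 6.19, 3.88 and 0.404 RPKM, and for each gene the libraries of these groups overlapped. In CT ob the ratio was 10.5, 18.3 and 11.6 and in ob/ob 18.8, 7.21 and 12.4, and the groups overlapped. These are ratios of RNA levels, without a test because the genes were chosen as a list, and they do not measure enzyme activity.

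The wider protease system was described by 97 further genes in 9 lists. In the db model 43 of them were tested and 0 were called by edgeR, with 8 at an unadjusted p under 0.05, and 0 by DESeq2. In the ob model 48 were tested and 0 were called by edgeR, with 11 at an unadjusted p under 0.05. DESeq2 called 3, all lower in ob/ob, namely Vcan, Bgn and Col4a2, and 0.736% of all genes. Col4a2 had 28, 191 and 24 counts in CT ob, the highest in library obHet_65, and 11, 9 and 15 counts in ob/ob. It passed the filter on low counts through the CT ob libraries, in which it was high, so its call is a description. Of 11 tested matrix substrates and partners, 10, Col4a1 and Col4a2 among them, had a negative log2 fold change in the ob model. The median of the 11 was -0.88. Markers of other cell types lay lower there too, with 2 of 2 tested endothelium markers negative (sums of 7.2 to 8.09 CPM in ob/ob and 8.13 to 32 CPM in CT ob) and 4 of 5 tested theca and stroma markers negative, none of them called, and their part was not tested. In the db model the median of 9 such genes was 0.33. For the differences between mutant effects and between mutants edgeR called 0 of 49 genes each, with 8 and 7 at an unadjusted p under 0.05, and DESeq2 called 0.

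Between the control groups 5 of 49 genes (10.2%) were called, against the 6.63% of all genes. Vcan, the versican core protein that ADAMTS proteases cleave, was at 596, 489 and 455 CPM in CT ob and at 267, 251, 246 and 179 CPM in CT db, so the log2 fold change was 1.15 ± 0.294 (edgeR, adjusted p = 0.0344). Pcsk6, a proprotein convertase of the family that activates such precursors, was at 31.3, 11.7 and 21.3 CPM in CT ob and at 1.95 to 3.76 CPM in CT db, so the log2 fold change was 2.94 ± 0.507 (edgeR, adjusted p = 0.00986). The basement membrane collagens Col4a1 and Col4a2 were higher in CT ob by 3.6 ± 0.852 and 3.33 ± 0.794 on the log2 scale (edgeR, adjusted p = 0.028 and 0.0288). Both were too low to be tested in the db model, with 7 to 15 and 2 to 10 counts in CT db, and passed the filter of the fit of all libraries with the help of the ob libraries, so these values are descriptions. Their highest levels, 71.4 and 48.5 CPM, came from library obHet_65, which also had the highest sum of endothelium markers (32 CPM), and without it they were 2.05 and 1.73 and neither was called. Vcan was not called without het_51, het_69, het_75, obHet_60 or obHet_68, nor Adamts6 without het_51, obHet_60 or obHet_68. Pcsk6 was called in all 14 fits that left out a library, some of which left out a mutant library, in neither group compared. Adamts6 was lower, at 28.7, 44.5 and 22.5 CPM in CT ob and 59.6, 126, 59.6 and 91.1 CPM in CT db, so the log2 fold change was -1.37 ± 0.281 (edgeR, adjusted p = 0.0164).

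**Figure D5:**
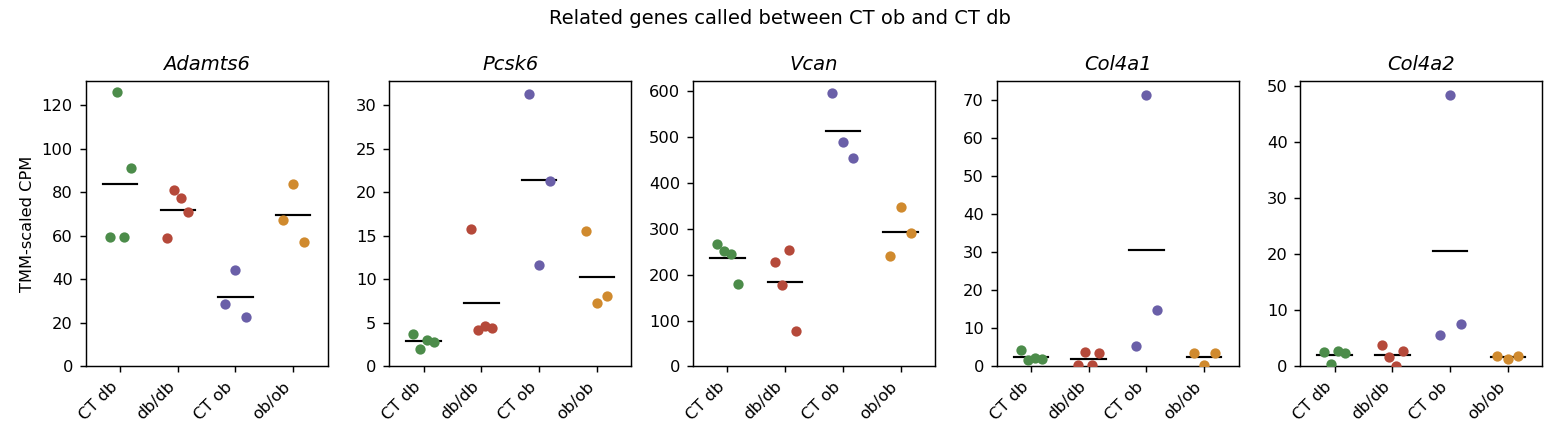
Level in TMM-scaled CPM (linear axes starting at 0) of the 5 genes of the wider lists that were called between CT ob and CT db, 1 point per library with a bar at the group mean. Vcan and Pcsk6 are higher and Adamts6 is lower in all 3 CT ob libraries than in all CT db libraries, and 1 CT ob library carries most of the Col4a1 and Col4a2 level.

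Several relatives exceeded most of the 10 genes in level. Adamts2, the procollagen N-proteinase, had a mean of 27.4 RPKM over the 14 libraries and Adamts19 9.77 RPKM, both above Adamts5. Mmp23 (17.9 RPKM) and Mmp11 (17.7 RPKM) were above Mmp14 and Mmp2. The sheddases Adam10 (117 RPKM) and Adam9 (23.1 RPKM), the cysteine protease inhibitor Cst3 (86.6 RPKM) and the matrix proteins Thbs1 (107 RPKM) and Fbln1 (70.2 RPKM) were abundant. The highest levels in the remaining lists were those of Adamtsl2 (7.02 RPKM) and Adamtsl1 (0.14 RPKM) of the ADAMTS-like proteins, Spint2 (5.44 RPKM) of the inhibitors, Plgrkt (5.5 RPKM) and Plau (4.33 RPKM) of the plasminogen system, and Cebpb (22.5 RPKM) and Nrip1 (10.1 RPKM) of the ovulatory regulators. Sdc4 (47.4 RPKM) and Lrp1 (20.1 RPKM), cell-surface receptors known to bind or clear ADAMTS proteases and TIMPs, were present in all libraries. Some genes of the ovulatory response were near 0, since Pgr, the progesterone receptor upstream of Adamts1, had 0 to 3 counts, and Areg and Ereg had 0 to 1 count.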

How the data were processed

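Granulosa cell RNA was copied to cDNA with a Smart-seq2 type protocol and read as single reads of 75 bp. The authors deposited raw counts per gene without normalization. Their methods name cutadapt 1.18, STAR 2.7.10a, GRCm39 and featureCounts 2.0.1, while the processing notes in the labels name Trim Galore 0.6.2, HISAT2 2.1.0 and GRCm38. The strand setting and the treatment of reads with several matches are not given in the sources used here, so overlapping genes can share reads. Of the identifiers, 98.8% were found in the GRCm39 annotation used here (GENCODE vM39).

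The 10 genes, the 9 wider lists and the marker lists were chosen with earlier results of these data known. All of the 10 are named in every comparison in which they were tested. From the wider lists the genes called and the 2 with the highest RPKM per list are named, and for each of the 10 that passed the filter the gene with the nearest profile. Genes named otherwise were chosen after their values were seen. Columns were assigned to groups by their prefix, since they carry no replicate number.

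In R 4.3.3, edgeR 4.0.16 gave TMM scaling, filterByExpr (minimum count 10, minimum total 15) and quasi-likelihood tests, with Benjamini-Hochberg adjustment over all genes tested and calls at 0.05 or less. The db and ob models were fitted alone, and all 14 libraries together for the other comparisons. Single values were compared by two-sided exact permutation tests over libraries, which cannot go below 0.0286 for 4 against 4 or 3 against 4 libraries, or 0.1 for 3 against 3. RPKM is the TMM-scaled CPM per kilobase of exon. DESeq2 1.42.0, limma 3.58.1 (voom, for the interaction), other scalings and filters, downsampling, a fit of the compared groups alone and leaving out each library were alternatives. The tests were checked on simulated counts. Of 2-fold changes edgeR found 50% in the db model, 10% in the ob model and 22% between controls. Of 4-fold changes it found 85%, 66% and 75%. DESeq2 found 55%, 26% and 39% of 2-fold and 86%, 88% and 84% of 4-fold changes. Unchanged genes called numbered 5, 11 and 2 by edgeR and 17, 43 and 17 by DESeq2, in the same order. A 2-fold change could thus often go uncalled. The detection limit of 3 counts takes account of counting error alone.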

Additional observations from a re-analysis of the deposited data

Results flagged for a closer look

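In the db/db group, the level of Mmp2 in library HOM_24 was 5.84 CPM, against 0 to 0.417 CPM in the other 3 libraries. The gap to the nearest library was 0.928 of the range of the group, above the critical value of Dixon's test for 4 samples. The value stands for 14 counts. It was the 1 such library among 20 combinations of gene and group checked, and chance alone gives about 1 in 20. The same library had the highest sum of theca and stroma markers (317 CPM), and their part in this level was not tested.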

How the results depend on the processing

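Of 883 alternative values of the members' fold changes, 822 kept their direction and their side of the threshold, 25 lost a call, 10 gained one and 26 changed sign. The 822 include the values of Adamts1 between mutants, which was at 0.00 and so had no direction to keep. In the db model DESeq2 called 1 of the 10 genes (0.389% of all genes) and a fit without the filter on low counts called 2 (0.947%), and for the ob model the fit without the filter called 3 (1.12%). Between the control groups 2 were called with library totals only (2.07% of all genes) and 0 in the fit of these groups alone (0.0253%). Between mutants 3 were called without the filter (1.54% of all genes). Of the wider lists DESeq2 called 3 genes in the ob model (0.736% of all genes) and 8 between controls (12.4%). Without the filter these lists gave 3 calls in the db model (0.947% of all genes), 4 in the ob model (1.12%) and 5 for the interaction (0.947%). They gave 19 between controls (4.97%) and 4 between mutants (1.54%). The cause of these differences was not tested. All genes called between controls numbered 834 by edgeR, 1563 by DESeq2, 1727 without the filter, 261 with library totals and 3 in the fit of these groups alone.

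Leaving out each library in turn gave 0 to 4 calls between the control groups, 0 without obHet_68 and 2 without het_51, het_69, het_75 or obHet_60. For the wider lists, added after seeing the data, it gave 1 to 6 calls there, 1 without het_51 or obHet_68, 2 without het_75 and 3 without het_69 or obHet_60. The share of all genes called between controls was 0.85% without obHet_68, 1.11% without het_51 and 1.61% without het_75. It was 2.9% without obHet_60, 3.82% without het_69 and highest, at 9.46%, without het_37. Between controls, Timp1 was called in 13 of 14 such fits (log2 fold change 1.33 to 1.87) and Mmp14 in 13. Mmp2 was called in 9 (3.09 to 4.18) and Adamts5 in 3 (-2.33 to -1.39). These fits include those without a mutant library, which is in neither control group and enters only through the filter, scaling and shared spread. Timp1 and Mmp14 lost their call without a control library, obHet_68. The direction turned for Adamts9 (-0.45 to 0.79) and Timp3 (-1.13 to 0.56) in the ob model, and Adamts1 (-0.31 to 0.44), Mmp2 (-2.61 to 0.47, the latter without HOM_24) and Serpine2 (-0.21 to 0.29) for the interaction. It turned as well for Adamts1 (-0.21 to 0.24), Timp2 (-0.11 to 0.69) and Adamts9 (-0.10 to 0.86) between controls, and Timp3 (-0.83 to 0.05) between mutants. Adamts1 between mutants, at 0.00 with all libraries, ranged from -0.35 to 0.40. The interaction of Adamts1 was -0.17 after downsampling and -0.09 by limma-voom, that of Serpine2 was -0.02 by limma-voom, and Adamts1 between controls was 0.01 with upper quartile scaling. With that scaling and with library totals, Adamts5 between controls missed the threshold (adjusted p = 0.0501 and 0.0523), as did Mmp2 with library totals (0.0503). No paired analysis was possible because the columns carry no replicate numbers. Changes in Adamts4, and in Mmp2 in the db model, could not be measured at this depth.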

Other observations

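For each gene that passed the filter, the gene with the most similar profile over the 14 libraries was taken from the 12586 genes tested, by the root mean square difference of log2 CPM after centring. For Serpine2 it was Impdh2, an enzyme of guanine nucleotide synthesis (0.153). For Mmp14 it was Dag1, which encodes the matrix receptor dystroglycan (0.183), and for Timp1 it was AU020206 (0.26). Adamts9 was nearest to 2310010J17Rik (0.306), Adamts1 to Ppp1r15a (0.383), Timp2 to Gpc3, a cell-surface heparan sulphate proteoglycan (0.445), and Adamts5 to Lsamp (0.478). The largest differences were those of Timp3 with Prxl2a (0.524) and of Mmp2 with Serpinf1, a member of the serpin family (0.723). This measure grows with the spread of the gene itself, which was 1.95 for Mmp2 and 0.385 for Serpine2 on the log2 scale. It therefore does not rank likeness between genes, and the Pearson correlation was 0.929 for Mmp2 with Serpinf1 and 0.918 for Serpine2 with Impdh2. The libraries share their depth and composition across genes, so these values are descriptions.

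Exons of Mmp2 overlapped the gene Gm45472 on the opposite strand over 24.3% of their length, and those of Timp3 overlapped Syn3 over 21.3%. The counts on these neighbours were 0 to 5 and 1 to 26 a library. Adamts9 overlapped A730049H05Rik over 9.2% of its exons, with 0 to 19 counts on that gene. Without a stated strand setting, reads of overlapping genes cannot be told apart.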
